A study of Mus musculus with 2 samples.

Results

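The genes described here are 38 mouse genes of macrophages and of dead-cell clearance, read in hind limb interdigital tissue of wild-type and Hammer toe embryos. They were taken as a named list, and a gene was read from probe sets whose platform annotation names that gene alone. All 38 had such a probe set, 63 probe sets in all of 45101 on the array, and 18193 genes were named in this way across the array. The wild-type tissue came from B6 embryos and the other tissue from embryos homozygous for Hammer toe, a mouse mutant with webbed digits whose strain the labels do not name, so strain and genotype cannot be told apart. Both were collected at stage E13.5 from the interdigits labelled ID2 and ID3. The design text speaks of 3 sets of 5 littermates, 15 embryos per genotype, but the values come from 1 array per genotype and how the embryos relate to it is not stated. There is therefore no spread between samples, no test and no p-value in what follows, and the number of arrays limits the precision.

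Macrophages are the professional phagocytes of the embryo. They depend on the growth factor CSF1 and its receptor, and their gene program is driven by the transcription factor PU.1, the product of Spi1. In the interdigit they enter zones of programmed cell death and engulf the dying cells. A dying cell exposes phosphatidylserine on its surface. The bridging proteins Gas6 and protein S link it to the receptor kinases Tyro3, Axl and Mertk, Mfge8 links it to integrins, and C1q of the complement system coats it. Clearance receptors and bridges are not restricted to macrophages, and many of them are also made by mesenchyme and epithelia.

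Promoter sequences are shown first, because most members are macrophage genes and PU.1, the regulator of that lineage, binds a short GA-rich core. RefSeq promoter windows on build GRCm38.p6 were matched by symbol for 30 of the 38 members, and the 250 bases before the annotated start were searched on both strands for the PU.1 core GAGGAA. Adgre1, C1qa, Cd14, Csf1r, Itgb2, Lyve1, Spi1 and Tyrobp had no entry. Capitals mark each match, which reads GAGGAA on the gene's strand or TTCCTC where the match lies on the opposite strand. The sequences were chosen to show lineage genes and clearance genes with and without the core. Stab1, Aif1, Mrc1 and C1qb are lineage genes with a match that read higher in Hammer toe, Cd68 is one with a match that read lower, Fcer1g is one without a match that read higher, and Mertk and Tyro3 are clearance receptors without a match.
Stab1, GRCm38.p6 chr14:31168642-31168891, minus strand: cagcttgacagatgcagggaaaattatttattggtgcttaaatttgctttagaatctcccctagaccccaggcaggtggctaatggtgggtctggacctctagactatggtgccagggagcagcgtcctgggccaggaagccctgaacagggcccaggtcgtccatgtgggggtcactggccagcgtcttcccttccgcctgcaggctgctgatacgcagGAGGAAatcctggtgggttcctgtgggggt
Aif1, GRCm38.p6 chr17:35176053-35176302, minus strand: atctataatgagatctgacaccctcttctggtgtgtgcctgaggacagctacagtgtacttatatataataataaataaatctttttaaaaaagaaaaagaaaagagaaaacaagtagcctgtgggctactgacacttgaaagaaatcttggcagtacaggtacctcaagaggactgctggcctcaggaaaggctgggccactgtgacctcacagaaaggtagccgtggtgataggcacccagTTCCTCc
Mrc1, GRCm38.p6 chr2:14229164-14229413, plus strand: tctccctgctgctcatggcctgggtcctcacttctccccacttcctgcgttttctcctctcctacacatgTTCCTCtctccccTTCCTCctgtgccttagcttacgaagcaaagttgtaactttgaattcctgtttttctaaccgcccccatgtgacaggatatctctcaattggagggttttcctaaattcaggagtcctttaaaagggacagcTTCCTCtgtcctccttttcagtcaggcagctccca
C1qb, GRCm38.p6 chr4:136886201-136886450, minus strand: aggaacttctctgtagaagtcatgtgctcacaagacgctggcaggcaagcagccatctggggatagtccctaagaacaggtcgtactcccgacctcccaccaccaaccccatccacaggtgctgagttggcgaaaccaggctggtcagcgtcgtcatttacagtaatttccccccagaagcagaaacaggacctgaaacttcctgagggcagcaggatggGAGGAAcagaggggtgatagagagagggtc
Cd68, GRCm38.p6 chr11:69666171-69666420, minus strand: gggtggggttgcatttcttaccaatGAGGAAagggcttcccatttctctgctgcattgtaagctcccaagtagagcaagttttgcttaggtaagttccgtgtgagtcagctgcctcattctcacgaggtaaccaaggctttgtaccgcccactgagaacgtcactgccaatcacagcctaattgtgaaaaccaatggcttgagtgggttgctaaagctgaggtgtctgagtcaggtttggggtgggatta
Fcer1g, GRCm38.p6 chr1:171234350-171234599, minus strand: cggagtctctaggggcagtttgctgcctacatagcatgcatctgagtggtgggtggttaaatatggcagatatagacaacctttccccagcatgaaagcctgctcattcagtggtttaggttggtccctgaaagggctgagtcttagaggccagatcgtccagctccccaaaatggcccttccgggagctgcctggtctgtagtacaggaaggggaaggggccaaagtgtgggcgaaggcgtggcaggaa
Mertk, GRCm38.p6 chr2:128698665-128698914, plus strand: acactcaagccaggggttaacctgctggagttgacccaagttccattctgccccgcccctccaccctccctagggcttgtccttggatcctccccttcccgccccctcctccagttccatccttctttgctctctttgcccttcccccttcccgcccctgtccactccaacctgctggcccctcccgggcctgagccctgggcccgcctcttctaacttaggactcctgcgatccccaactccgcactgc
Tyro3, GRCm38.p6 chr2:119799264-119799513, plus strand: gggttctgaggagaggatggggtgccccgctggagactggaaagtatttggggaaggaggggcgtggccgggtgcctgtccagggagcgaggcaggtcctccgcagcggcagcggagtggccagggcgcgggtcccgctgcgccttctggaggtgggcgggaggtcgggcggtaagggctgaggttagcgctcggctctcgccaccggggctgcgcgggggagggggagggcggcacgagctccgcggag

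The core was present before the start of 17 of the 30 members (56.7%), against 25.9% of the 27025 genes in the table. Stab1, Aif1, C1qb and Cd68 each held 1 match and Mrc1 held 3. Among lineage genes 14 of 23 held it (60.9%), and among clearance genes 3 of 7 (42.9%), namely Axl, Mfge8 and Trem2. Genes with the core included both higher and lower readings. Of 13 measured lineage genes with the core 10 read higher in Hammer toe and 3 lower, Cd68, F13a1 and Pf4. Of 8 without it 4 read higher, Cx3cr1, Fcer1g, Folr2 and Lyz2, and 4 lower. Adgre1, C1qa, Cd14, Csf1r and Tyrobp, measured lineage genes without a promoter entry, all read higher and are in neither count. Of all measured lineage genes 19 of 26 read higher, and of all measured genes 51.7%. A longer form, GAGGAAGT, which contains the core, was found for C1qc and Pf4 only, 2 of 30 members (6.67%) against 2.79% of all genes. The windows differed in base composition, from 43.6% G and C for Aif1 to 73.2% for Tyro3, and the part of composition in these shares was not tested. A match is a stretch of letters and not a measured binding site.

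**Figure D1:**
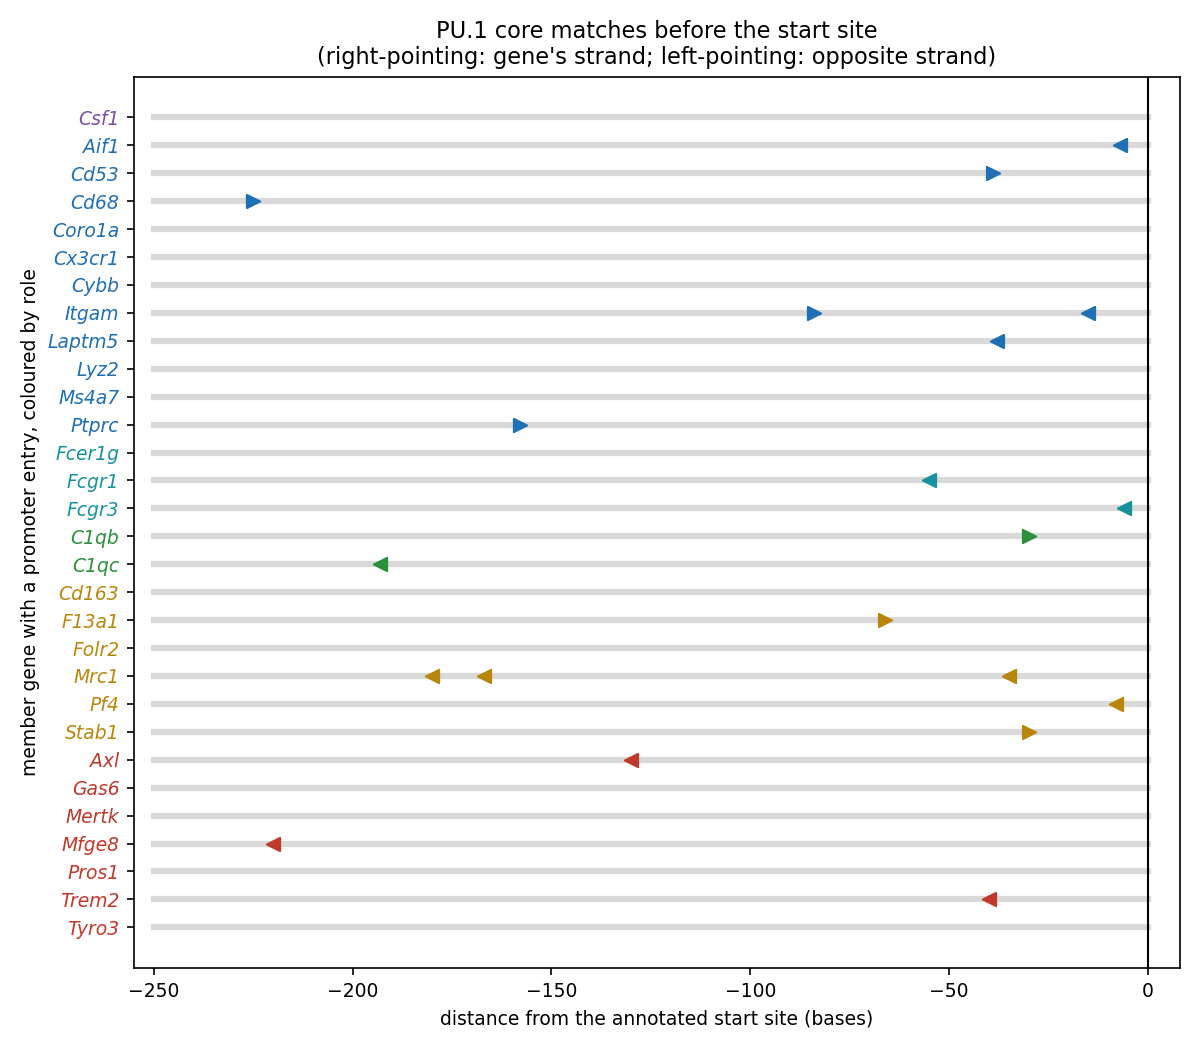
Positions of GAGGAA in the 250 bases before the annotated start of the 30 members with a promoter entry, 1 row and 1 window per gene, with the distance from the start in bases on the horizontal axis and triangles pointing right for the gene's strand and left for the opposite strand. In 17 members there is at least 1 match, and Mrc1 has 3.

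On these arrays the lineage genes tended to read higher in Hammer toe, while the clearance receptors and their bridges lay close to wild type. Stab1, Aif1, Fcgr3, Mrc1 and C1qa were the 5 members at least 1.5-fold higher, with log2 ratios, Hammer toe over wild type, of 0.85, 0.79, 0.63, 0.59 and 0.59. Of all measured genes 2.17% were at least 1.5-fold higher. No member was 1.5-fold lower, against 1.39% of all measured genes. The count of 5 depended on how dim signal was treated: it was 0 with a pseudocount or with the floor raised to the 75th percentile, and 10 without a floor. The 26 measured lineage genes had a median log2 ratio of 0.23, and the 6 measured clearance genes of -0.03, beside 0.01 for all 11621 measured genes. This contrast depends in part on how roles were assigned. Stab1, Cd14, C1qa, C1qb and C1qc also bind dying cells but were counted as lineage genes. They read higher, at 0.85, 0.22, 0.59, 0.49 and 0.12, and no other assignment was run. With the raised floor 5 lineage genes were left, and their median was 0.015. That median is the bound of Mrc1, whose wild-type value was under the raised floor, so it understates the ratio of 0.59. Fewer macrophages and less RNA per macrophage cannot be told apart in bulk tissue, and the same holds for more.

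Intensities are MAS5 signals on a linear scale, each array scaled by the authors to a common mean. A floor was set at the median of all values, 78.1, and lower values were raised to it. A gene with at least 1 array above the floor counts as measured, which held for 32 of the 38 members and 11621 of all 18193 named genes. The ratio of a gene with 1 array under the floor is a bound and is written as "at least". Levels of different genes are not compared, since each probe set has its own brightness. In place of replicates there are 2 technical yardsticks: the log2 ratios of 18 spiked control probe sets had an SD of 0.06, and the log2 ratios of several probe sets of 1 gene scattered around their mean with an SD of 0.21. Both leave out the variation between embryos.

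The labelled tissue was checked against 12 genes of interdigital limb mesenchyme. All 12 were above the floor on both arrays, as were 10985 of all 18193 named genes. The retinoic acid enzyme gene Aldh1a2 read 13129 on the wild-type array and 11474 on the Hammer toe array, and the distal limb gene Hoxd13 17291 and 15779. The list's median log2 ratio was -0.11, with 4 genes higher, among them the T-box genes Tbx3 and Tbx2 at 0.80 and 0.70, and 8 lower. Of all measured genes 51.7% were higher.

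**Figure D2:**
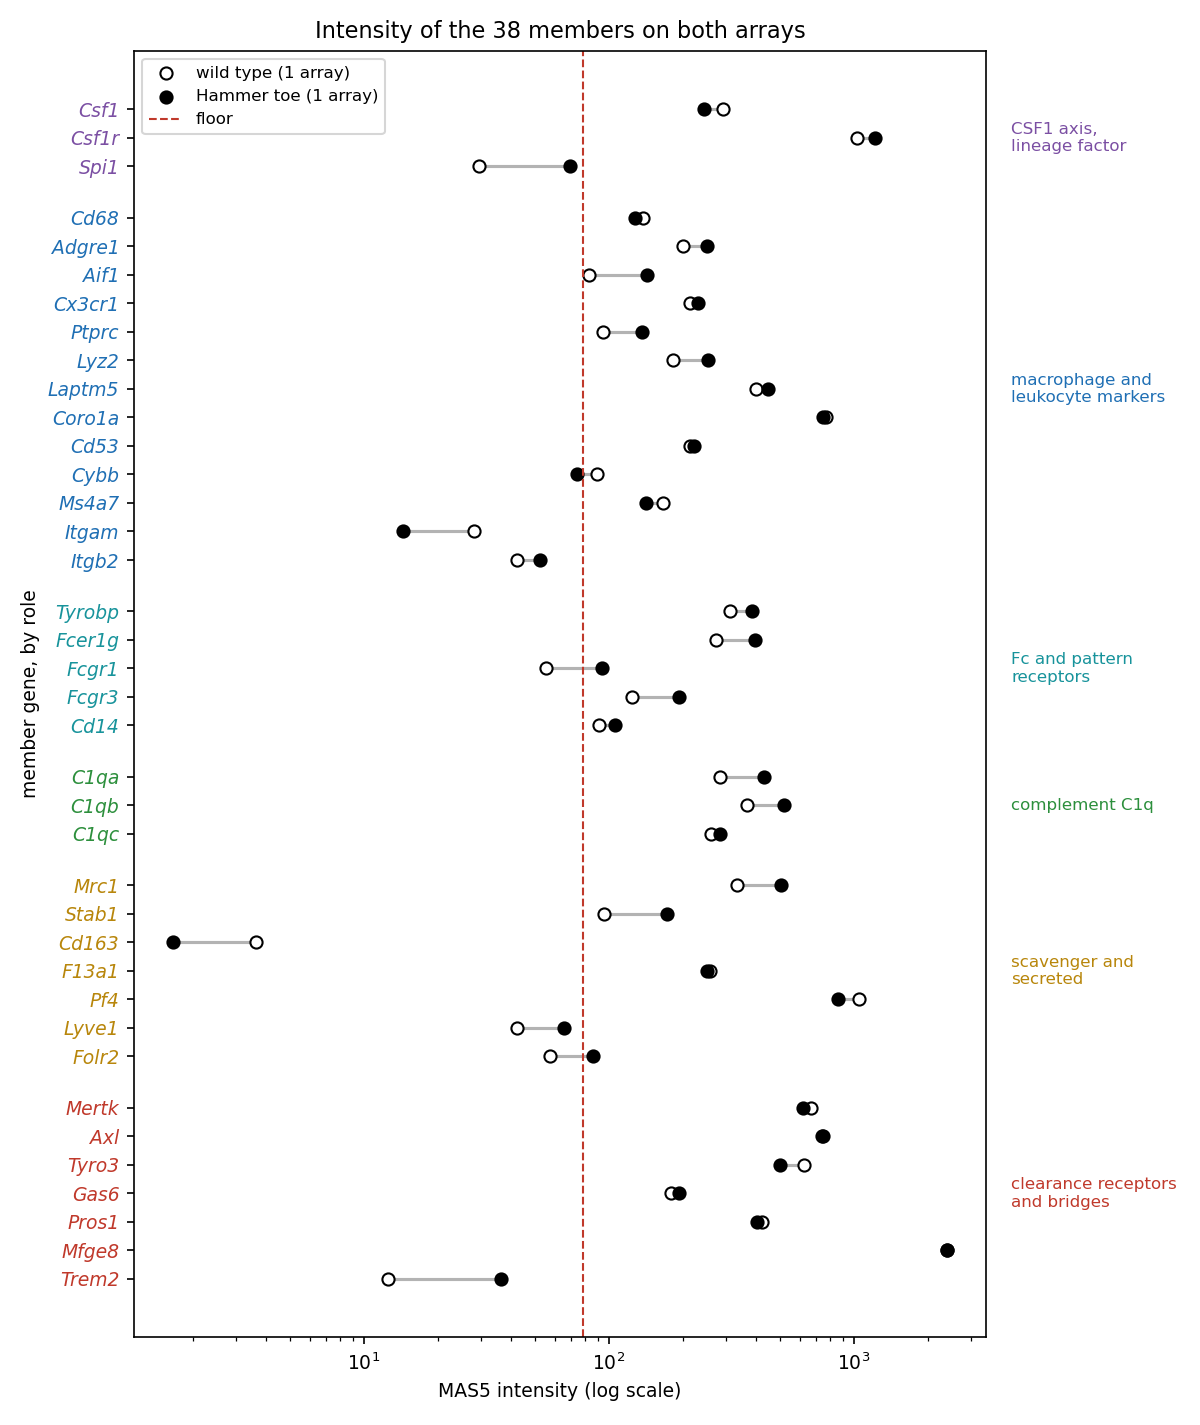
MAS5 intensity on a log axis for each of the 38 members, grouped by role, with the wild-type array as an open circle, the Hammer toe array as a filled circle and the floor of 78.1 as a dashed line. The rows of Spi1, Itgam, Itgb2, Cd163, Lyve1 and Trem2, 6 in all, lie left of the floor on both arrays.

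The CSF1 axis was read through a ligand, a receptor and a transcription factor. Csf1r, the receptor that macrophages need to survive, read 1028 on the wild-type array and 1218 on the Hammer toe array, a log2 ratio of 0.24. Its other 2 probe sets were also higher, so that the 3 spanned only 0.24 to 0.29, which is narrow beside the 0.21 by which probe sets of a gene usually disagree. Csf1, the growth factor itself, which is made by mesenchyme and other neighbouring cells, went the other way on its brightest probe set, from 293 to 245, a log2 ratio of -0.26. The 3 measured probe sets of Csf1 did not share a sign and ranged from -0.26 to 0.24. Spi1, which encodes PU.1, was under the floor on both arrays, at 29.4 and 69.5, and gives no ratio.

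General markers of macrophages or leukocytes made up 13 members, and 11 of them were measured, with 7 higher, 4 lower and a median log2 ratio of 0.10. Aif1, a calcium-binding actin regulator of macrophages, read 82.7 on the wild-type array and 143 on the Hammer toe array, the largest ratio in this group at 0.79. Its only probe set is of the _s_at type, which can bind related transcripts, and the wild-type value lay just above the floor. Ptprc (CD45, the phosphatase on all leukocytes) read 94.5 and 137, a log2 ratio of 0.54 and just short of 1.5-fold. Lyz2, which encodes the lysozyme of myeloid cells, read 182 and 254, a log2 ratio of 0.48. Adgre1, which encodes the macrophage antigen F4/80, read 200 and 250.4, a log2 ratio of 0.33. These were the 4 genes of the 11 with a log2 ratio of 0.32 or more.

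Other general markers were nearly level. Cx3cr1, a chemokine receptor of tissue macrophages, read 215 and 231, and Laptm5, a lysosomal protein of blood cells, 398 and 447. The 4 measured probe sets of Laptm5 had log2 ratios from -0.03 to 0.17, and the lowest of these was under the floor in Hammer toe and is the only one left when _x_at, _s_at and _a_at probe sets are left out. The tetraspanin gene Cd53 stood at 0.05 and the actin regulator gene Coro1a at -0.04, with 0.07 on the second measured probe set of Coro1a. Cd68, the endosomal glycoprotein widely used to stain macrophages, read 138 on the wild-type array and 128 on the Hammer toe array, and so did not share the direction of Aif1. Ms4a7, a membrane protein of macrophages, was lower at -0.24, and Cybb, the catalytic subunit of the phagocyte oxidase, read 89.2 and 74.3, at least 1.14-fold lower. Both chains of the integrin CR3, Itgam and Itgb2, were under the floor on both arrays, at 28.2 and 14.4 and at 42.3 and 52.1. The markers of this group were thus split in direction. As a check of the label, both arrays were above the floor for 23 of the 31 lineage genes, beside 10985 of all 18193 named genes. Among the 23 were Csf1r, Adgre1, Cd68 and the C1q chains, while Spi1, Itgam and Itgb2 were under the floor on both arrays.

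All 5 genes of Fc receptor and pattern receptor signalling were higher on their brightest probe set, with a median log2 ratio of 0.31. Fcgr3, an activating receptor for immunoglobulin, read 125 on the wild-type array and 193 on the Hammer toe array, a log2 ratio of 0.63. Fcer1g, the signalling chain that Fc receptors share, read 273 and 395, a log2 ratio of 0.53. Tyrobp, the adaptor DAP12 that couples Trem2 and other receptors, read 311 and 385, a log2 ratio of 0.31. Cd14, a co-receptor for bacterial lipopolysaccharide that also tethers dying cells, read 91.2 and 106. Fcgr1, the high-affinity Fc receptor, read 55.2 and 93.7, a log2 ratio of at least 0.26. Fcgr1 was above the floor in Hammer toe alone, and its other probe set went the other way. That probe set read 78.03 on the wild-type array and 49.09 on the Hammer toe array, both under the floor. Only Fcgr3 and Fcer1g had log2 ratios of 0.32 or more. Fcgr2b, an inhibitory Fc receptor gene outside the members, went the other way, from 113 on the wild-type array to 61.03 on the Hammer toe array, at least 1.45-fold lower.

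The 3 chains of C1q were all higher, by unequal amounts. C1qa read 285 on the wild-type array and 428 on the Hammer toe array, a log2 ratio of 0.59. C1qb read 367 and 517, a log2 ratio of 0.49, and its other 2 probe sets gave smaller ratios, down to 0.15. C1qc read 260.2 and 283, a log2 ratio of 0.12. C1qa lay almost on the 1.5-fold line, and C1qc was within the usual disagreement between probe sets.

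Scavenger and secreted genes of resident macrophages held both the highest lineage ratio and the lowest. Stab1, which encodes stabilin-1, a scavenger receptor that also binds phosphatidylserine, read 95.3 on the wild-type array and 172 on the Hammer toe array, a log2 ratio of 0.85. Its only probe set is of the _a_at type. Mrc1, the mannose receptor CD206, read 333 and 503, a log2 ratio of 0.59. Folr2, a folate receptor of resident macrophages, read 57.3 and 86.3, at least 1.11-fold higher. F13a1, the A subunit of coagulation factor XIII, was level at 260 and 251, a log2 ratio of -0.05. Pf4, a chemokine of platelets that embryonic macrophages also express, read 1047 and 865, a log2 ratio of -0.28. The scavenger receptor gene Cd163, at 3.63 and 1.66, and the hyaluronan receptor gene Lyve1, at 42.04 and 65.9, were under the floor on both arrays.

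Clearance receptors and bridges showed no common direction, with 3 of the 6 measured genes higher and 3 lower, although Mfge8 turned from 0.01 to the other side of 0 under quantile normalization. Mertk, the kinase receptor that macrophages use to engulf dying cells, read 667 on the wild-type array and 618 on the Hammer toe array, a log2 ratio of -0.11. Axl read 743 and 748, a log2 ratio of 0.01. Tyro3 read 625 and 499.5, a log2 ratio of -0.32, the only member as low as -0.32, and its second probe set stood at -0.04. The bridging ligand gene Gas6 read 179 and 193 and Pros1, which encodes protein S, 421 and 401, log2 ratios of 0.11 and -0.07. Mfge8, which encodes the bridge from phosphatidylserine to integrins, read 2395 and 2405, a log2 ratio of 0.01. Trem2, a lipid-sensing receptor of macrophages, was under the floor on both arrays, at 12.5 and 36.3. The 5 measured genes other than Tyro3 thus lay within 0.11 of no difference, less than the usual disagreement between probe sets.

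**Figure D3:**
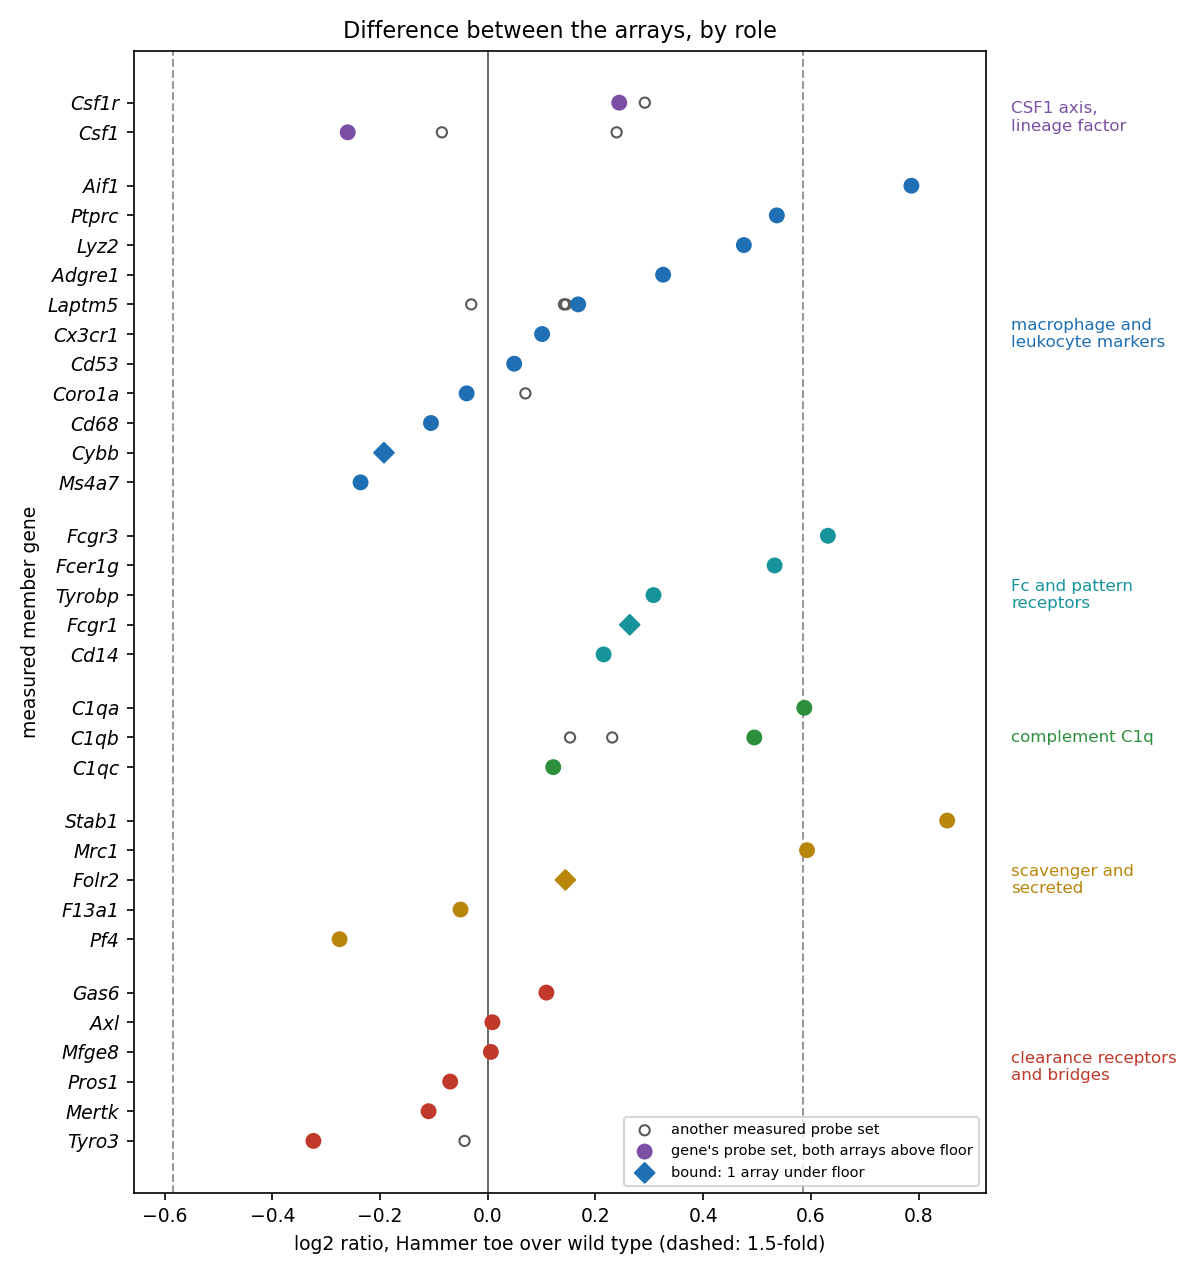
Log2 ratio, Hammer toe over wild type, of the 32 measured members by role, with filled circles for the gene's probe set, diamonds for bounds where 1 array was under the floor, small open circles for further measured probe sets and dashed lines at 1.5-fold. There are 5 lineage members that reach or pass the right-hand line, and the clearance genes lie between -0.32 and 0.11.

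The members' counts were read against all measured genes. At 1.5-fold or more, 5 of 32 members were higher (15.6%), against 2.17% of all measured genes, and 0 of 32 were lower, against 1.39%. A log2 ratio of 0.32 or more was reached by 10 of 32, against 8.47% of all genes. In any amount, 22 of 32 were higher (68.8%), against 51.7% of all genes. Of the lineage genes 19 of 26 were higher and 7 lower. The 3 members with 1 array under the floor, Cybb, Fcgr1 and Folr2, entered these counts at their bound, and over the 29 members above the floor on both arrays the median log2 ratio was 0.12. Without any floor all 38 members have a ratio, and 26 were higher and 12 lower.

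Dim genes vary more between arrays, so the counts were also set beside genes of like intensity. Among members whose brighter array read up to 200, 3 of 11 were at least 1.5-fold higher, against 5.75% of all such genes, and 4 of 11 had a log2 ratio of 0.32 or more, against 18.7%. Between 200 and 1000, 2 of 18 were at least 1.5-fold higher, against 2.41%, and 6 of 18 had a log2 ratio of 0.32 or more, against 9.8%. Above 1000 there were 3 members, Csf1r, Pf4 and Mfge8, all of them between -0.28 and 0.24. Aif1, Stab1, C1qa and Mrc1 lay above the range that held the middle 95% of genes of like intensity, and the other 28 measured members lay inside it. For C1qa and Mrc1 the margin was small, 0.59 against an upper limit of 0.58. In the range from 200 to 1000, which held most members of both kinds, the 14 lineage genes had a median log2 ratio of 0.24 and the 4 clearance genes of -0.09.

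**Figure D4:**
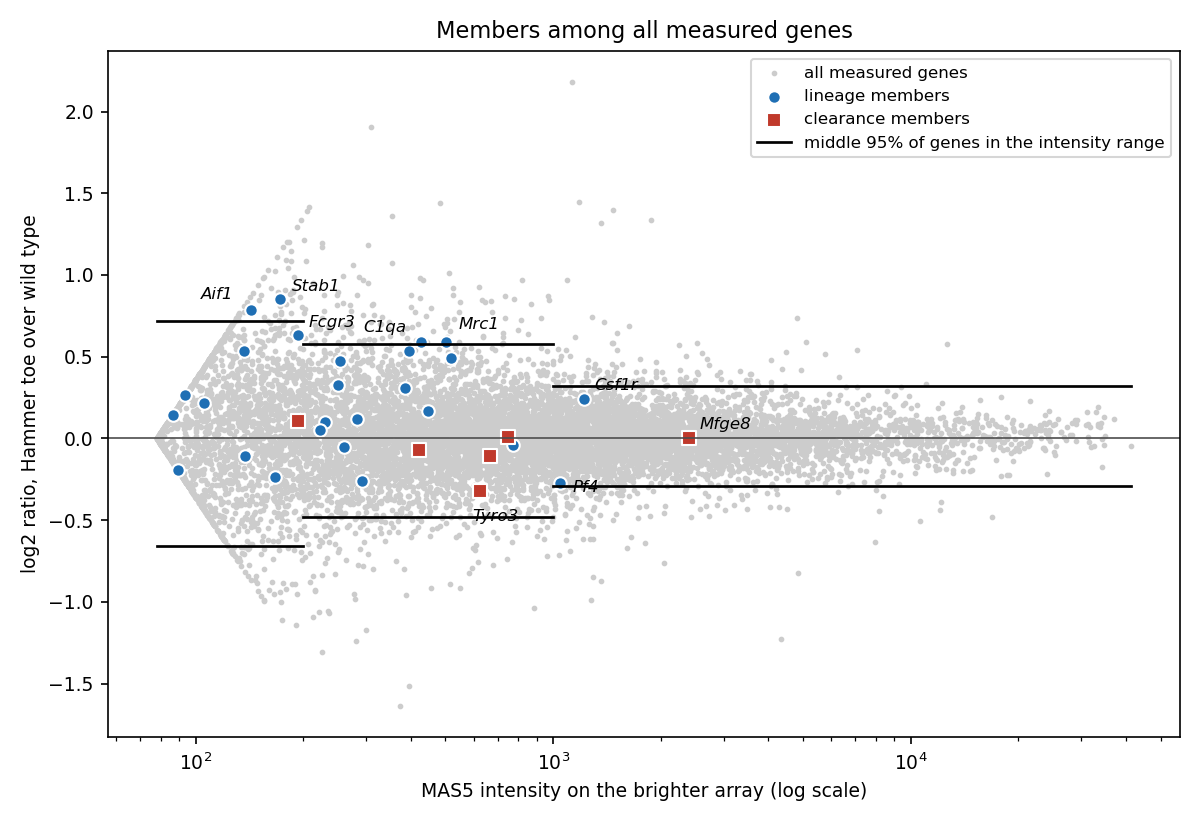
Log2 ratio, Hammer toe over wild type, against the intensity on the brighter array (log axis) for all 11621 measured genes in grey, the 26 measured lineage members as blue circles and the 6 measured clearance members as red squares, with black lines bounding the middle 95% of genes in each of 3 intensity ranges. Stab1 and Aif1 lie above the upper line of the dimmest range, and no member lies below a lower line.

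Further macrophage genes outside the list were split in direction. Of 31 such genes, 20 were measured, with a median log2 ratio of 0.01. Of these 10 were higher (50%), against 51.7% of all measured genes, and 10 lower. The 11 genes above the floor on both arrays read differently from the 9 with 1 array under it. Of the 11, 8 were higher and 3 lower, with a median of 0.19, beside 17 higher and 6 lower of 23 lineage members and a median of 0.24. Of the 9 bounds, 2 were higher and 7 lower. Slc11a1 stood at 0.51 or more, Fcgr2b at -0.54 or less and P2ry12 at -0.41 or less. Lcp2, an adaptor of blood cell signalling, read 79.3 on the wild-type array and 132 on the Hammer toe array, and Cd52, a leukocyte surface protein, 133 and 215, log2 ratios of 0.73 and 0.70. The other 6 higher genes on both arrays, Mpeg1, Lgmn, Ctss, Lcp1, Ncf1 and Hpgds, lay between 0.03 and 0.34, and Ncf1 averaged 0.10 over its probe sets. The 3 lower ones were Ncf4 at -0.34, Csf2ra at -0.33 and Maf at -0.08. Runx1, a transcription factor of blood development, read 123 and 75.05, at least 1.57-fold lower, and averaged a log2 ratio of -0.34 over its measured probe sets.

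The engulfment genes outside the list centred near 0. Of 28 genes of dead-cell recognition and uptake, 23 were measured, with a median log2 ratio of 0.01 and none at 1.5-fold. Of these 14 were higher (60.9%), against 51.7% of all measured genes, and 9 lower. A log2 ratio of 0.32 or more was reached by 3 of the 23, against 8.47% of all genes. None was as low as -0.32, against 736 of 11621 genes. Scarb1, a scavenger receptor for lipoproteins and phosphatidylserine, was furthest, from 531 to 755, a log2 ratio of 0.51, and its mean over all measured probe sets was 0.28. Anxa1, which encodes annexin A1, a phosphatidylserine-binding protein, read 923 and 1250, a log2 ratio of 0.44, above the upper limit of 0.32 that bounded the middle 95% of genes of like intensity. Cx3cl1, the ligand of Cx3cr1, read 69.6 and 102, a log2 ratio of at least 0.38. The cytoskeletal regulator gene Dock1 and the adaptor gene Gulp1, which act inside the engulfing cell, both stood at 0.01, and at -0.01 and -0.07 as a mean over their probe sets.

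Platelet and erythroid genes read mostly lower in Hammer toe. Of 11 megakaryocyte and platelet genes, 7 were measured and 6 of these were lower in Hammer toe, against 5616 of 11621 measured genes. The median log2 ratio of the 7 was -0.60. The summed intensity, over the 9 genes with a probe set, was 1729 on the wild-type array and 1084 on the Hammer toe array. Ppbp, a platelet chemokine encoded next to Pf4, read 580 and 327, a log2 ratio of -0.82, and Tubb1, the platelet tubulin, 191 and 86.8, a log2 ratio of -1.14. Gp1bb and Clec1b, which encode platelet surface receptors, had log2 ratios of -0.60 and at most -0.62. Treml1 alone was higher, at 0.17, and Gp9 and Gp6 were under the floor. Pf4 thus had the sign of most platelet genes, and so did the other lower lineage members, Csf1, Cd68, Coro1a, Cybb, Ms4a7 and F13a1. The other 19 of 26 measured lineage members were higher. The part of platelet RNA in the Pf4 reading was not tested. All 7 measured erythroid genes of 10 were lower too, beside the same 5616 of 11621 measured genes. The erythroid median was -0.36, with Hbb-bh1 at -0.82 and summed intensities of 58074 and 49814.

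Markers of other tissues also differed between the samples. Of 12 surface ectoderm genes 10 were higher (83.3%), against 51.7% of all measured genes. The ectoderm median log2 ratio was 0.43, with summed intensities of 11352 on the wild-type array and 14487 on the Hammer toe array. Epcam, an epithelial adhesion molecule, was furthest at 0.57, but averaged -0.07 over its probe sets. Of 7 measured skeletal muscle genes 5 were higher (71.4%), against the same 51.7%. The muscle median was 0.35, with sums of 1137 and 1689 over 10 genes and Myh3 and Actc1 at 1.09 and 0.97. Ectoderm and muscle genes thus read higher in the median, as did the macrophage lineage genes. The part of these tissues in the lineage difference was not tested. Vessel genes were split: of 11 blood endothelial genes 6 were higher and 5 lower, with a median of 0.02 and sums of 5461 and 5926. A log2 ratio of 0.32 or more was reached by 3 of them, against 8.47% of all genes. These were Esam at 0.55, Egfl7 at 0.44 and Tie1 at 0.33, and none was as low as -0.32. Of 6 lymphatic endothelial genes, which matter here because Lyve1 and Stab1 are also made by such vessels, 4 were measured, with a median of 0.01, sums of 3201 and 3251 and Flt4 furthest at -0.32. The lymphatic regulator gene Prox1 was under the floor on both arrays, at 41.5 and 27.0. The part of vessels in the Stab1 reading was not tested.

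**Figure D5:**
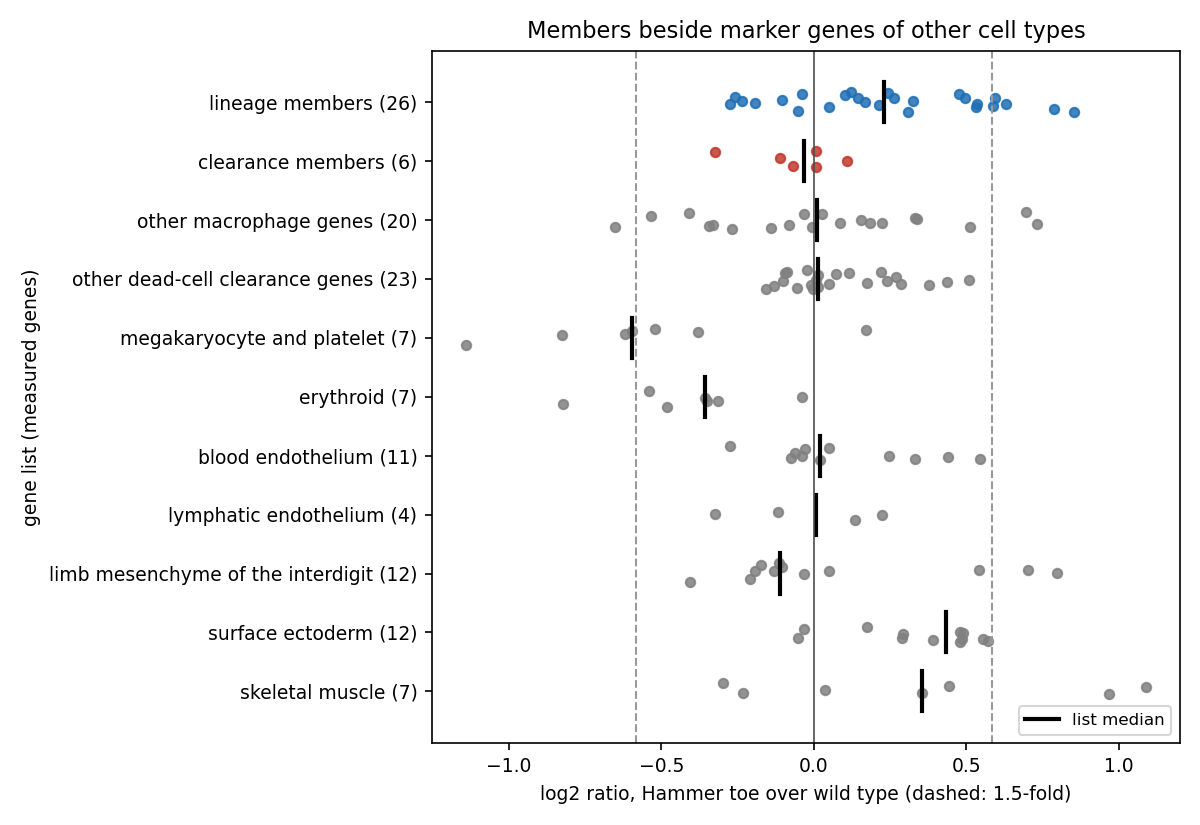
Log2 ratio, Hammer toe over wild type, of the measured genes of each list, 1 point per gene, with the number measured in brackets, a black bar at the list's median and dashed lines at 1.5-fold. The lineage members centre on 0.23 and the clearance members on -0.03, while the platelet and erythroid genes centre on -0.60 and -0.36.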

How the data were processed

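Total RNA of each sample was labelled as biotinylated cRNA from 250 ng, per the labels' protocols. The intensities were deposited on a linear scale, 1 per probe set. Per the submitters' processing notes, the authors used MAS5 and Affymetrix Expression Console, whose versions are not given in the sources used here. With 2% of values trimmed from either end, both arrays averaged 500.003, and this scaling hides any change shared by most transcripts. Of 45101 probe sets, 64 controls were left out, 34945 had exactly 1 gene in the platform annotation, 932 several and 9160 none. Symbols were updated through gene IDs with RefSeq of GRCm38.p6. Where several probe sets named a gene, the value came from the brightest by mean. Ratios were computed in Python 3.11.15 with pandas 2.3.3, and the script was tested on simulated data with planted changes. These were larger than any member's ratio and lay in genes well above the floor, so smaller changes and dim genes were not covered.

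No test was possible with 1 array per genotype, so differences are described by size, at 1.5-fold. Every member is accounted for. Of other lists, genes at 1.5-fold or more were named (at most 4, or the largest), and further examples were chosen after their values were seen. Members, lists and intensity ranges were chosen with earlier results of these data known. Alternatives were 3 other scalings, 3 other floors, a pseudocount, 2 other ways to pick probe sets and other sizes of change.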

Additional observations from a re-analysis of the deposited data

How the results depend on the processing

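Median centring and the lowess correction gave the same 5 members at 1.5-fold or more as the deposited scaling, and quantile normalization gave 4, without C1qa. Averaging all probe sets of a gene also gave the same 5. The share of all genes that much higher was 1.81% to 2.17% in these runs. The floor mattered most. Without a floor, 10 of 38 members were at least 1.5-fold higher and 2 lower, Cd163 and Itgam, against 12.6% of all genes lower. The lineage median log2 ratio was then 0.30. A floor at the 25th percentile left 37 members measured, and 10 of them were higher, with medians of 0.22 for all measured members and 0.30 for lineage genes. The 5 added members in both cases were Fcgr1, Folr2, Lyve1, Spi1 and Trem2, each under the floor of 78.1 on at least 1 array, and the share of all genes called higher was 12.9% without a floor and 7.48% with the lower one. A floor at the 75th percentile left 9 members, 0 of them at 1.5-fold, against 0.36% of all genes higher. The medians were 0.0058 for all 9 and 0.015 for the 5 lineage genes. The lineage median is the bound of Mrc1, which read 333 in wild type, under that floor of 498. C1qb was also cut to a bound, from 0.49 to 0.06. With the pseudocount 0 members reached 1.5-fold, since it shrinks ratios of dim genes, and 1.02% of all genes did. Leaving out probe sets of the _x_at, _s_at and _a_at types left 23 members and 3 at 1.5-fold, C1qa, Fcgr3 and Mrc1, against 2.16% of all genes. At a log2 ratio of 0.32 there were 10 members higher, against 8.47% of all genes, and 1 lower, against 736 of 11621 genes. At 2-fold 0 members were higher. Leaving out Csf1 and Pf4, an alternative chosen after seeing the data, moved neither the lineage median nor that of all members by more than the SD of the spiked controls. The clearance median stayed within that SD under every alternative run. Of 504 values of 62 named genes under the alternatives, 476 moved by no more than the SD between probe sets of a gene, 28 moved further and 0 changed sign after being at 1.5-fold. Dim signal limits the values of Aif1, Stab1, Ptprc and Cd14, whose wild-type readings lay just above the floor.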

Other observations

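Markers of other white blood cells were mostly under the floor. Of 10 neutrophil genes, 8 had a probe set of their own and only Prtn3 was measured, at 244 on the wild-type array and 277 on the Hammer toe array, while S100a8, S100a9, Mpo and Elane were under the floor on both arrays. Of 10 lymphocyte genes, 9 had a probe set and only Cd8a was measured, through an _x_at probe set and under the floor in wild type, at 70.5 and 97.8. Cd3e, Cd3g, Cd4, Cd79a and Ms4a1 were under the floor. Of 8 mast cell genes, Kit, which other embryonic cells also express, read 546 and 464, Cpa3 read 107 and 96.8, and the other 6 were under the floor.

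The 20 matches to the PU.1 core in the members' promoters, read from 1 window per gene, lay from 6 to 225 bases before the start. Of these 11 lay in the last 60 bases and 9 farther away. In those last 60 bases, a distance chosen after the positions were seen, 11 of 30 members held GAGGAA (36.7%), against 7.02% of the 27025 genes. They were Aif1, C1qb, Cd53, Fcgr1, Fcgr3, Itgam, Laptm5, Mrc1, Pf4, Stab1 and Trem2. Among lineage genes 10 of 23 held it there, and among clearance genes 1 of 7, Trem2. The other 6 members with the core held it only farther away. The genes with a match in the last 60 bases included Pf4, which read lower in Hammer toe, and Itgam and Trem2, which were under the floor.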
